A study of Mus musculus with 12 samples.

Results

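Gene expression of the laminins and the proteins that link them into basement membranes was examined in dorsal root ganglia (DRG). The set held 10 of the 49315 genes in the count table, chosen by symbol: the laminin alpha chains Lama1, Lama2, Lama4 and Lama5, the beta chains Lamb1 and Lamb2, the gamma chain Lamc1, the nidogens Nid1 and Nid2, and perlecan (Hspg2). RNA came from 8 ganglia per mouse of 12 mice aged 10 months, 1 poly(A) library each. All 12 mice were Postn-Cre(+) and Nf2 flox/flox. The 6 mice called Nf2 had no further modified allele in the labels, and the 6 DKO (double knockout) mice were in addition Fak1 flox/flox, Fak being the gene annotated as Ptk2. Both genotypes were split evenly by label, into 3 males and 3 females. Periostin promoter-driven Cre acts in Schwann cells and their precursors, whereas the libraries hold RNA of the whole ganglion with its neurons, satellite glia, vessels and connective tissue. No comparison with intact Nf2 was made here.

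A basement membrane is a thin sheet of extracellular matrix that covers Schwann cells, satellite glia, perineurial cells, muscle fibres and vessels. Laminins are its cell-facing polymer, each molecule being a trimer of an alpha, a beta and a gamma chain that is secreted only once assembled. The alpha chain binds the receptors, integrins and dystroglycan, whereas nidogens hold on to the gamma chain and connect laminin with the second polymer, collagen IV, which perlecan also binds. In peripheral nerve, Lama2 with Lamc1 is needed for axon sorting and myelination by Schwann cells, and Lama2 loss causes a muscular dystrophy with neuropathy.

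Total counts ranged from 21129191 to 41250329 per library, and the 10 genes took between 0.125% and 0.234% of them. The deleted gene did not separate the genotypes in whole-ganglion RNA: Ptk2 lay between 65.8 and 75.5 CPM (counts scaled to a common library total) in Nf2 and between 46.5 and 76.0 CPM in DKO mice, with an edgeR adjusted p of 0.529. Summed markers of sensory neurons (11269 to 14025 CPM) and of Schwann cells (7612 to 11152 CPM) were high in all 12 libraries of the labelled ganglia. The library labelled male, mouse 702, went against its sex label, with 496 CPM of the X-linked Xist and 0.525 CPM of the Y-linked Ddx3y, so values by sex are given with and without it. Mice 649 (Nf2) and 887 (DKO) stood apart by their mitochondrial share of counts, 4.45% and 5.60% against a median of 2.52% over the 12 mice.

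Promoter windows are shown for some of the genes whose levels turned out to move together from mouse to mouse (Hspg2, Lama2 and Nid1). The Lamb2 window is shown as well. Over all 12 mice Lamb2 followed these genes less closely, a difference that rested on few mice, mouse 886 among them. RefSeq sequences on GRCm38.p6, from 250 bases before to 50 bases after the annotated start, matched 6 of the 10 genes: these 4, Lama5 and Lamb1, but not Lama1, Lama4, Lamc1 or Nid2. Each is written 5′ to 3′ on the strand of the gene. Capitals mark matches, on either strand, to any of the searched motifs: the GC box GGGCGG, the TATA motif TATAAA, the AP-1 motif TGANTCA, the TEAD motif CATTCC and the SOX motif ACAAAG. The windows lie at chr4:137468553-137468852 on the plus strand (Hspg2), chr10:27616893-27617192 on the minus strand (Lama2), chr13:13437352-13437651 on the plus strand (Nid1) and chr9:108479612-108479911 on the plus strand (Lamb2). For all 4 genes the RefSeq start used lies inside the span that GENCODE M21 gives for the gene, not at the upstream end of that span. It lies farthest inside for Lama2.
Hspg2: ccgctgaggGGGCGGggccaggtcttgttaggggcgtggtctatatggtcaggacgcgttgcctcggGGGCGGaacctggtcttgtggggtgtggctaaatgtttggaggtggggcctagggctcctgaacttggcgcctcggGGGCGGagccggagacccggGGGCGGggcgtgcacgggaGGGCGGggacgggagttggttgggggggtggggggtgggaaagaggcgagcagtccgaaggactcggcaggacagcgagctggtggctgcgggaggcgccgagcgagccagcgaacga
Lama2: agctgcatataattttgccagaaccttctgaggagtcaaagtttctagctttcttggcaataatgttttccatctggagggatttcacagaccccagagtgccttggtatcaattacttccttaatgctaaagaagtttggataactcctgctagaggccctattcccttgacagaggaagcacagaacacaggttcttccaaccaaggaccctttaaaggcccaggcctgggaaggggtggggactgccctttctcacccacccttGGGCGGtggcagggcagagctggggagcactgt
Nid1: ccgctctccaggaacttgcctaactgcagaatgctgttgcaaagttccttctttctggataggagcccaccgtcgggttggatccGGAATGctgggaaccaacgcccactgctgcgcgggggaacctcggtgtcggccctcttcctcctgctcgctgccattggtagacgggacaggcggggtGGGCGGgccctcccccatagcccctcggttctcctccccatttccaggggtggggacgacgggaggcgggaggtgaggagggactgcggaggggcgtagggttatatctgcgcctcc
Lamb2: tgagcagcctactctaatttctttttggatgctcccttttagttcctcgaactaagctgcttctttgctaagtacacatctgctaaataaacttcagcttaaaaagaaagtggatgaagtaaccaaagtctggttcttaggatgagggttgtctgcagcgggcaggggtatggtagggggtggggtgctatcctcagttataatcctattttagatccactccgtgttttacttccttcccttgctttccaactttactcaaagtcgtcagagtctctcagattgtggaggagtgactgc

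The Hspg2 window held 5 GC boxes, Lama2 and Nid1 held 1 each, and Lamb2 held none of the 5 motifs. Of the windows not printed, Lama5 held 4 GC boxes and Lamb1 held 2. The TEAD motif was found once, in the Nid1 window. For comparison, GGGCGG was present in 35.7% of the 32851 windows of the same length, TATAAA in 13.6%, TGANTCA in 7.81%, CATTCC in 14.7% and ACAAAG in 18.7%. The GC content was 70.3% for Hspg2, 64.7% for Nid1, 50.3% for Lama2 and 44.0% for Lamb2, with a median of 52.7% over all windows. The windows of Hspg2, Lama2 and Nid1 thus had no searched motif in common other than the GC box. The windows of Lama5 and Lamb1 held that motif too. Lama4 and Lamc1, which also moved with these genes, had no window, so the group as a whole was not covered.

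The first question was how much of each chain the ganglion contained. Levels between genes were compared as CPM per kilobase of exon (union exon length of GENCODE M21), averaged over the 12 mice. Perlecan stood first with 43.8 ± 9.76 CPM per kb (SD, n = 12) and was above Lamc1 in all 12 mice. Lamc1 (31.7 ± 7.79), Nid1 (30.2 ± 6.23) and Lamb1 (26.1 ± 3.37) followed, with ranges that overlapped. Nid2 (19.3 ± 5.65) and Lamb2 (18.9 ± 2.04) were next and could not be ordered, since Nid2 was above Lamb2 in 8 of 12 mice. All alpha chains were lower: Lama4 reached 10.6 ± 2.28, Lama2 9.35 ± 2.29, Lama5 6.87 ± 1.18 and Lama1, the chain of early embryonic laminin, 0.297 ± 0.0867 CPM per kb. Between neighbours in this order, only the step from Lamb2 to Lama4 and the step from Lama5 to Lama1 separated the ranges, although Lama4 exceeded Lama2 in each of the 12 mice.

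**Figure D1:**
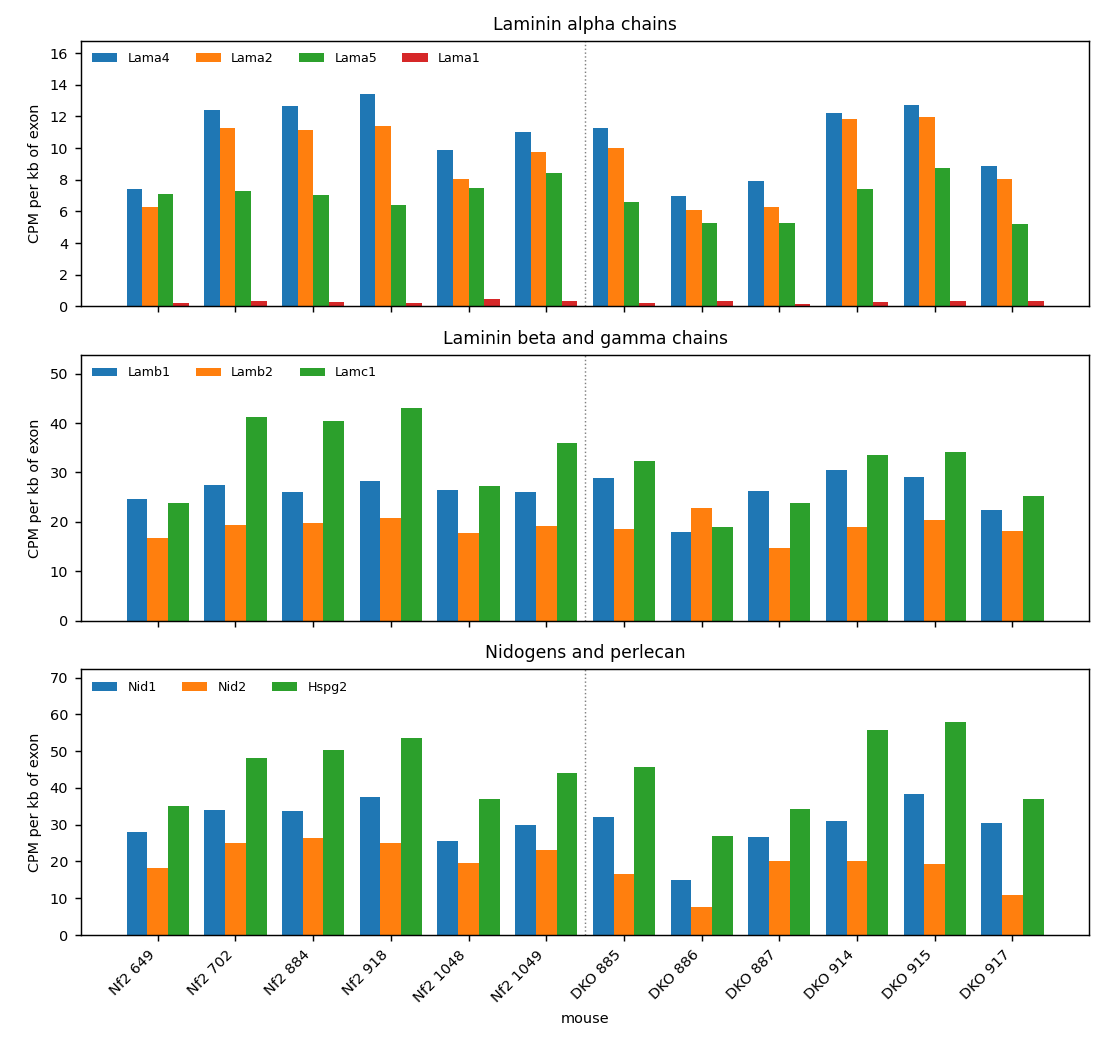
Level of each gene in each mouse as CPM per kilobase of exon, on linear axes from 0, with 1 bar per gene and mouse and the dotted line between 6 Nf2 (left) and 6 DKO mice (right). Lama4 stands above Lama2 in every mouse, Lama1 is barely visible, and mouse DKO 886 is the one mouse in which Lamb2 exceeds Lamb1.

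The mean shares of the 4 member alpha chains were close in both genotypes. Lama4, the alpha chain best known from vessels and also made by Schwann cells, made up 38.3% ± 2.62 of the alpha chain level per kb in Nf2 and 38.0% ± 1.19 in DKO mice (SD, n = 6). Lama2, the main alpha chain of Schwann cell and muscle basement membranes, made up 33.1% ± 2.83 and 34.0% ± 2.20. Lama5, which is widespread in epithelial and vascular basement membranes, made up 25.9% ± 4.88 and 24.6% ± 1.96, and Lama1 made up 1.10% ± 0.395 and 1.11% ± 0.406. Lama3, no member of the set but the remaining alpha chain, made up 1.56% ± 0.350 and 2.31% ± 0.642. For each of the 5 alpha chains the ranges of the genotypes overlapped, although 4 of 6 DKO mice had a Lama3 share above every Nf2 mouse. That difference was not tested. The summed level of the 4 member alpha chains was 28.4 ± 4.19 CPM per kb in Nf2 and 25.7 ± 6.40 in DKO mice.

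The mean balance of beta chains was close between the genotypes, and its range was wider among DKO mice. Lamb2, the beta chain typical of mature synaptic and nerve basement membranes, ranged among Nf2 mice from 40.2% to 43.0% of the beta chain level and among DKO mice from 35.8% to 55.7%. The mean share was 41.6% ± 1.13 and 42.4% ± 7.15 (SD, n = 6). Of the 6 DKO mice, 3 lay below the lowest and 2 above the highest Nf2 mouse. The highest share belonged to DKO mouse 886, and without it the SD among DKO mice was 3.23 percentage points. The difference in spread was not tested. Lamb3, outside the set, made up 0.293% ± 0.0627 of the beta chain level in Nf2 and 0.443% ± 0.114 in DKO mice. For Lamb3, 4 of 6 DKO mice lay above every Nf2 mouse, and this difference carries no test.

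Of the gamma chain level of Lamc1 and Lamc3 together, Lamc1 held 96.9% to 98.3% in Nf2 and 94.4% to 97.2% in DKO mice. The mean share was 97.5% ± 0.530 and 96.3% ± 1.21 (SD, n = 6), and the ranges overlapped. Within the nidogens, Nid2 made up 39.3% to 44.0% of the level per kb in the Nf2 group and 26.4% to 43.1% in the DKO group, with means of 42.1% ± 2.00 and 35.0% ± 5.71. In 5 of 6 DKO mice the Nid2 share lay below that of every Nf2 mouse. This share was singled out after its values were seen among 19 ratios and sums, and it carries no test.

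The comparison of DKO with Nf2 ganglia addressed how loss of Fak, the kinase that integrins activate on contact with laminin and other matrix, altered expression in Nf2-deficient ganglia. None of the 10 genes passed an adjusted p of 0.05 by edgeR (quasi-likelihood test, Benjamini-Hochberg adjustment over 18295 genes), against 172 genes or 0.94% of all genes tested. DESeq2 and limma voom also called 0 of 10. At an unadjusted p under 0.05 edgeR retained 1 gene, Nid2, against 14.9% of all genes, whereas DESeq2 retained 2 (Lamc1 and Nid2) against 16.1% of all genes. Either count is near its share over all genes. The genotypes overlapped for all 10 genes, where 1.95% of all genes did not overlap. The log2 fold changes (DKO against Nf2, negative when lower in DKO) were below 0 for 10 of 10 genes with a median of -0.16, against 49.0% below 0 and a median of 0.005 over all genes. These 10 values are not independent, since the genes moved together between mice. In bulk RNA, fewer cells of a type and less RNA per cell cannot be told apart.

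**Figure D2:**
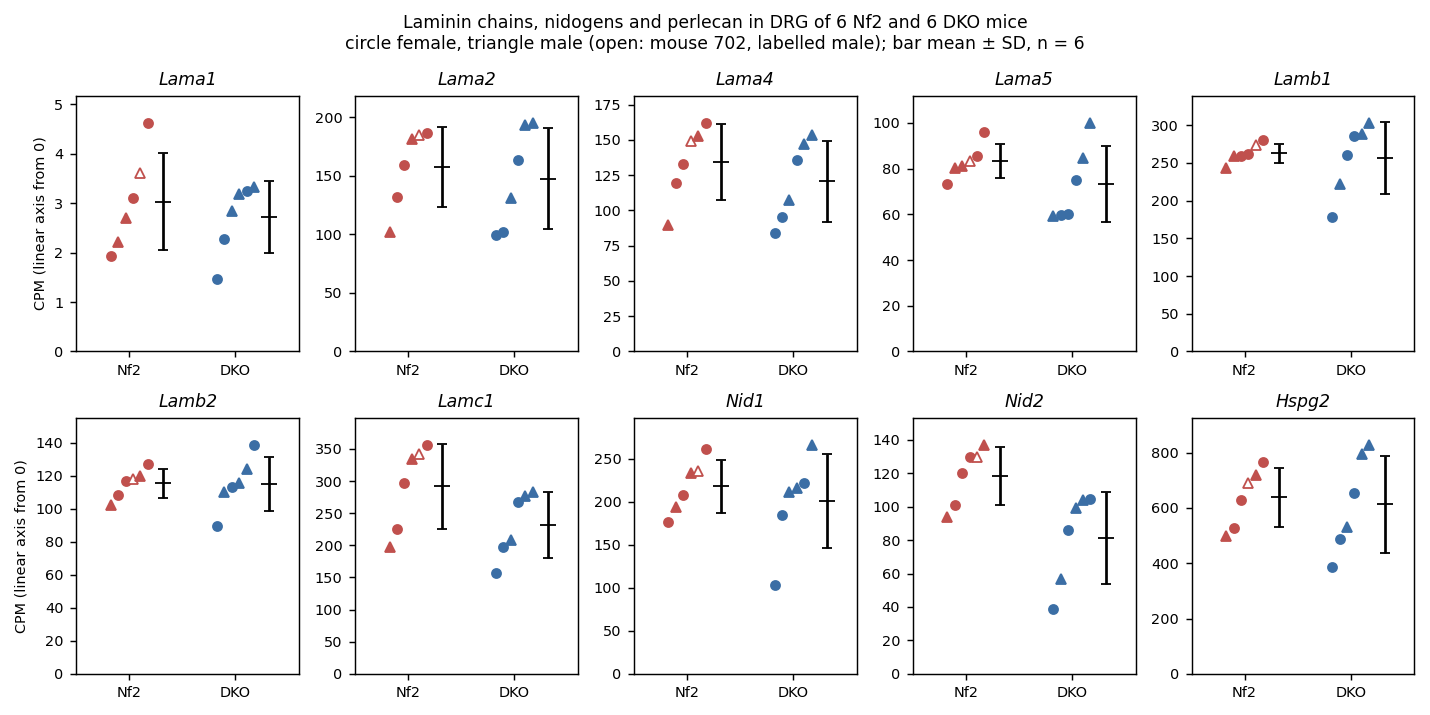
CPM of each gene in each mouse on linear axes from 0, Nf2 in red and DKO in blue, with circles for females, triangles for mice labelled male, an open triangle for mouse 702, and bars for mean ± SD (n = 6). The genotypes overlap in all 10 panels, and for Nid2 and Lamc1 all 6 DKO mice lie below the Nf2 median.

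Nid2 had the largest fold change of the 10 genes, and the other nidogen a small one. Nid2 (ENSMUSG00000021806, GRCm38 chromosome 14, 19751265 to 19811787) had 93.9, 125 and 137 CPM (lowest, median and highest) in Nf2 mice and 39.0, 92.6 and 105 CPM in DKO mice. All 6 DKO mice were below the Nf2 median and 3 were below the lowest Nf2 mouse, so the ranges still overlapped. The log2 fold change of Nid2 was -0.56 ± 0.21 (SE), a fold of 0.679 with a 95% interval from 0.496 to 0.930, and its edgeR adjusted p was 0.222 (unadjusted 0.0194). Nid1 (ENSMUSG00000005397, chromosome 13, 13437551 to 13512269) had 177, 221 and 261 CPM in Nf2 and 103, 214 and 266 CPM in DKO mice. Its medians nearly coincided, and its log2 fold change was -0.14 ± 0.17 with a 95% interval from -0.52 to 0.23 (edgeR adjusted p 0.756). The difference between the nidogens in their fold change was not tested.

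The size of the Nid2 value varied with the mice left out and with the covariate fitted. Without DKO mouse 886, its lowest library, the log2 fold change was -0.41 (edgeR adjusted p 0.271), and over the fits that each left out 1 mouse it ranged from -0.65 to -0.41. With the summed endothelial markers as a covariate it was -0.26 (edgeR adjusted p 0.750), and with skeletal muscle markers it was -0.54 (0.342). Endothelial markers summed to 159 to 217 CPM in Nf2 and 189 to 304 CPM in DKO mice, with 9 of 10 markers of a higher fitted level in DKO and 0 called. The median sum was 180 CPM in Nf2 and 228 CPM in DKO mice, so the part of this covariate cannot be told apart from genotype. Exons of Nid2 overlap those of Rtraf on the opposite strand, and the strand setting of the counting was not given in the sources used here. Rtraf, an RNA-processing factor, had 58.1 ± 9.22 CPM in Nf2 and 58.6 ± 1.79 CPM in DKO mice, and its log2 fold change was -0.01 (edgeR adjusted p 0.985).

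Lamc1 (ENSMUSG00000026478, chromosome 1, 153218922 to 153332786), the gamma chain shared by nearly all laminins of nerve, came next in size. It had 198, 316 and 356 CPM (lowest, median and highest) in Nf2 mice and 157, 238 and 283 CPM in DKO mice. As for Nid2, all 6 DKO mice lay below the Nf2 median, but only 1 lay below the lowest Nf2 mouse. The log2 fold change was -0.35 ± 0.17 with a 95% interval from -0.72 to 0.01, and the edgeR adjusted p was 0.355. It ranged from -0.44 to -0.26 over the fits without 1 mouse.

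The alpha chains overlapped broadly. Lama2 (ENSMUSG00000019899, chromosome 10, 26980036 to 27619758) had 102, 171 and 186 CPM in Nf2 and 99.5, 148 and 195 CPM in DKO mice, so the highest as well as the lowest mouse was a DKO. Lama4 (ENSMUSG00000019846, chromosome 10, 38965515 to 39110188) had 89.5, 141 and 162 CPM in Nf2 and 84.2, 122 and 153 CPM in DKO mice. Their log2 fold changes were -0.12 ± 0.19 (edgeR adjusted p 0.826) and -0.18 ± 0.16 (0.672), with 95% intervals from -0.53 to 0.29 and from -0.53 to 0.17. Both intervals hold decreases as well as increases. Lama5 (ENSMUSG00000015647, chromosome 2, 180176373 to 180225859) had 73.3, 82.2 and 96.0 CPM in Nf2 and 59.5, 67.6 and 99.9 CPM in DKO mice. Of the DKO mice, 3 had less Lama5 than any Nf2 mouse and 1 had more, and the log2 fold change was -0.20 ± 0.12 (edgeR adjusted p 0.464). Lama1 (ENSMUSG00000032796, chromosome 17, 67697259 to 67822647) rested on 31 to 126 counts per library, or 1.93 to 4.62 CPM in Nf2 and 1.47 to 3.32 CPM in DKO mice. At this depth its log2 fold change of -0.17 had a 95% interval from -0.67 to 0.33.

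The beta chains and perlecan had the values nearest to 0. Lamb1 (ENSMUSG00000002900, chromosome 12, 31265234 to 31329644) had 244, 260.1 and 280.1 CPM in Nf2 and 178, 273 and 303 CPM in DKO mice, so that 2 DKO mice lay below all Nf2 mice although the DKO median was the higher one. Its log2 fold change was -0.06 ± 0.11 (edgeR adjusted p 0.858). Lamb2 (ENSMUSG00000052911, chromosome 9, 108479736 to 108490530) had 102, 117 and 127 CPM in Nf2 and 89.5, 114 and 138 CPM in DKO mice. The log2 fold change of -0.02 ± 0.09 had the narrowest 95% interval of the 10 genes, from -0.21 to 0.16. With the endothelial marker sum as a covariate the Lamb2 value was -0.22 (edgeR adjusted p 0.405). Hspg2 (ENSMUSG00000028763, chromosome 4, 137468769 to 137570630) had 500.0, 659.8 and 767 CPM in Nf2 and 385, 591 and 827 CPM in DKO mice. The DKO mice thus held both extremes of perlecan, and its log2 fold change was -0.08 ± 0.17 (edgeR adjusted p 0.872). Without mouse 886 the values of Hspg2 and Lamb1 changed sign, to 0.02 and 0.03, and those of Nid1 and Lama2 came to -0.0089 and -0.03. Lama4 had -0.09 without that mouse. Over the 12 fits that each left out 1 mouse, Nid1 ranged from -0.24 to -0.0089, Lama2 from -0.21 to -0.03, Lama4 from -0.27 to -0.09 and Lama5 from -0.31 (without mouse 915) to -0.15. Lama1 ranged from -0.27 (without mouse 918) to -0.02 (without mouse 1048).

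Spread among DKO mice was wider than among Nf2 mice for 8 of 10 genes, and for 6 of 10 without mouse 886. The coefficient of variation of Lamb1 was 4.86% in Nf2 and 18.6% in DKO mice, that of Lama5 8.98% and 22.8%, that of Nid2 14.6% and 33.8%, and that of Hspg2 16.8% and 28.7%. Lamc1 (22.5% and 22.2%) and Lama1 (32.5% and 26.6%) did not share this pattern. Without mouse 886 the DKO value was 11.7% for Lamb1, 22.3% for Nid2, 23.1% for Hspg2 and 22.7% for Lama5, and that of Nid1 went from 27.1% to 13.2%, below its 14.2% in Nf2 mice. The difference in spread was not tested.

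**Figure D3:**
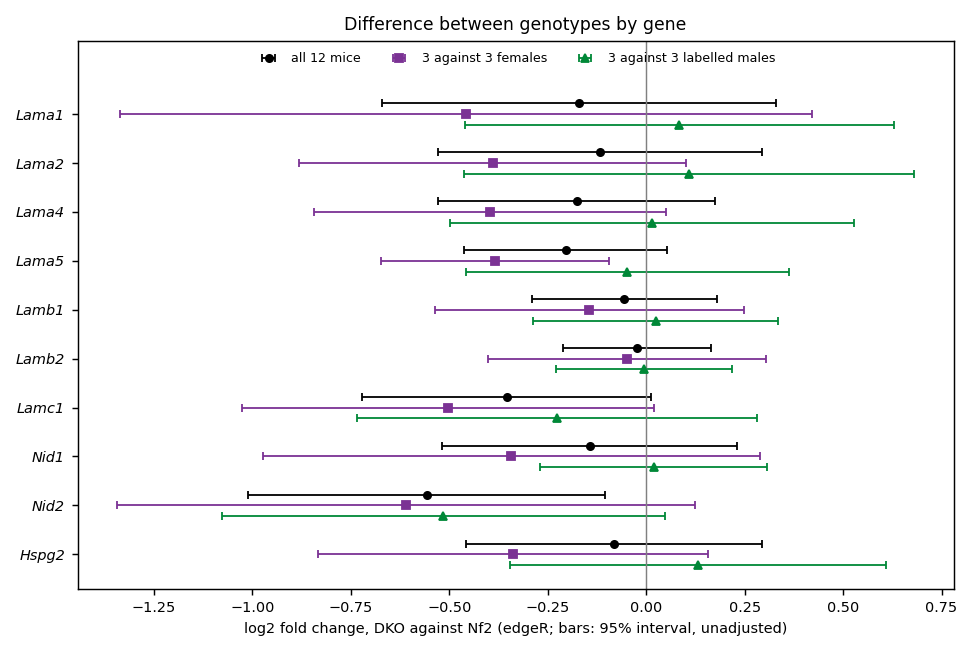
Log2 fold change of DKO against Nf2 for each gene by edgeR, with unadjusted 95% intervals as bars, in all 12 mice (black), in 3 against 3 females (purple) and in 3 against 3 mice labelled male (green). Intervals cross 0 except for Nid2 in all mice and Lama5 in females, and the point estimates of males lie to the right of those of females for each gene.

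Sex was the other factor in the labels. Between mice labelled male and female, with genotype as a covariate, 0 of 10 genes passed an edgeR adjusted p of 0.05, against 0.0164% of all genes, and 0 passed at an unadjusted p under 0.05. DESeq2 called 0 as well. Males had the higher fitted level for 9 of 10 genes, the exception being Lamb2, with log2 differences up to 0.24 (Hspg2, Lama2 and Nid1, edgeR adjusted p 1.00). Without mouse 702 those values were 0.24, 0.21 and 0.24, and again 9 of 10 were above 0.

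The point estimates of the genotype difference were lower in females than in males for each gene. In females alone all 10 log2 fold changes were below 0 with a median of -0.39, and in mice labelled male 6 of 10 were above 0 with a median of 0.02 (7 of 10 and 0.07 without mouse 702). Nid2 had similar values in both, -0.61 in females and -0.52 in males (-0.46 without mouse 702). Hspg2 had 528 to 767 CPM in Nf2 females against 385 to 653 CPM in DKO females, and 500.0 to 719.8 CPM in Nf2 males against 530.1 to 827 CPM in DKO males. Lama2 followed the same pattern, with log2 fold changes of -0.39 in females and 0.11 in males (0.25 without mouse 702). The interaction of genotype and sex passed for 0 of 10 genes, against 0.0109% of all genes, and 0 passed at an unadjusted p under 0.05. It had a smallest edgeR adjusted p of 0.920 (0.772 without mouse 702), and DESeq2 called 0 of 10. A dependence on sex was therefore not shown. Of the 3 DKO females, mice 886 and 887 are among the libraries lowest in these genes.

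The genes rose and fell together from mouse to mouse. Across the 12 mice, 37 of 45 pairs had a positive Pearson r of log2(CPM + 4), and 21 pairs passed an adjusted p of 0.05 (permutation test, 100000 resamples, two-sided, adjusted over 45 pairs). By Spearman's rho 13 pairs passed. The share of pairs that would pass among other genes was not determined. Genes outside the set followed single members as closely, such as Sept9 with Lama4 (r = 0.99). Moving together is thus not shown to be particular to these genes. The tightest group was Lama2, Lama4, Lamc1 and Hspg2, whose 6 pairs had r from 0.89 to 0.98. Lama2 and Lama4, both on chromosome 10, had r = 0.98 and rho = 0.94 (permutation p 1e-05 and 2e-05, the first being the smallest these resamples can give, adjusted p 1.12e-04 and 3e-04). Within genotype r was 0.99, and without mice 886 and 649, the 2 farthest from the median of Lama2, it was 0.97. Lama2 and Hspg2 had r = 0.96 and rho = 0.98 (permutation p 1e-05 for both), with r = 0.96 without the same mice. Lama4 and Lamc1 had r = 0.95 and rho = 0.92 (permutation p 1e-05 and 1.2e-04), with r = 0.93 without them. The relations of this group therefore did not rest on those mice.

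**Figure D4:**
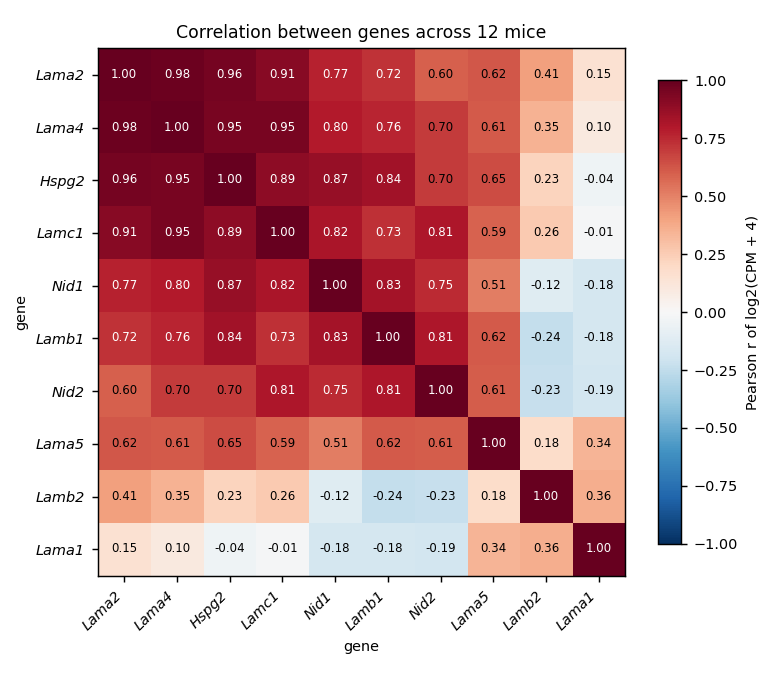
Pearson r between the genes across 12 mice on log2(CPM + 4), with the number in each square and the colour from -1 (blue) to 1 (red). Lama2, Lama4, Hspg2 and Lamc1 form the dark upper left block, and the rows of Lamb2 and Lama1 are pale.

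The nidogens and Lamb1 were tied more loosely to this group. Lamb1 had r = 0.84 with Hspg2 and 0.73 with Lamc1, and 0.77 and 0.43 without mice 886 and 917. With Lama2 and Lama4 it had r = 0.72 and 0.76, and 0.60 and 0.62 without mice 886 and 649. The r of Lamb1 with Nid2 went from 0.81 to -0.12 without mice 886 and 917, so that relation rested on those mice. Nid1 and Hspg2 had r = 0.87 and rho = 0.90 (permutation p 5e-05 and 1.3e-04), and r = 0.81 without mice 886 and 915. Lamc1 and Nid2 had r = 0.81 and rho = 0.79 (permutation p 4.5e-04 and 0.00359), and r = 0.72 without mice 886 and 649. Nid1 and Nid2 had r = 0.75 and rho = 0.45 (permutation p 0.0172 and 0.148, adjusted 0.0388 and 0.256), and r = 0.36 without mice 886 and 915, so the relation of the nidogens with each other rested on those mice. Lama5 passed with 1 of the other 9 genes by r and with none by rho: with Hspg2 it had r = 0.65 and rho = 0.48 (permutation p 0.0226 and 0.120, adjusted 0.0485 and 0.236). That r was -0.37 among the Nf2 and 0.91 among the DKO mice, and 0.59 without mice 917 and 887.

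Lamb2 and Lama1 passed with none of the other 9 genes. The r of Lamb2 with the rest ran from -0.24 (Lamb1) to 0.41 (Lama2). For some genes this too rested on few mice: without mouse 886 and 1 other mouse (649 or 887), Lamb2 had r = 0.91 with Lama2, 0.91 with Lama4, 0.88 with Lamc1, 0.88 with Hspg2 and 0.87 with Nid1. With the rest it stayed lower. Lamb2 had 0.54 with Nid2 without mice 886 and 887, and 0.49 with Lamb1 without mice 886 and 917. With Lama5 it had -0.45 without mice 887 and 917, and with Lama1 0.21 without mice 887 and 1048. Lama1 had r from -0.19 to 0.36 on its 31 to 126 counts per library.

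Mouse 886 (DKO, female) was the lowest of the 12 mice for 7 of 10 genes and the highest for Lamb2. Mice 649 and 887 were among the lowest 3 for 7 and 8 genes, and mice 918 (Nf2) and 915 (DKO) among the highest 3 for 7 genes each. Mice among the lowest 3 and among the highest 3 thus occurred in both genotypes. The single lowest mouse, however, was a DKO for every gene: beside mouse 886, mouse 887 for 2 genes and mouse 917 for 1. In mouse 886 the 10 genes took the smallest share of counts, 0.125%, and its endothelial and leptomeningeal marker sums were the highest of the 12. Its mitochondrial share was 2.20%, whereas mice 649 and 887 had the highest shares, 4.45% and 5.60%. Relations of the 10 genes with that share are among those tested below.

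**Figure D5:**
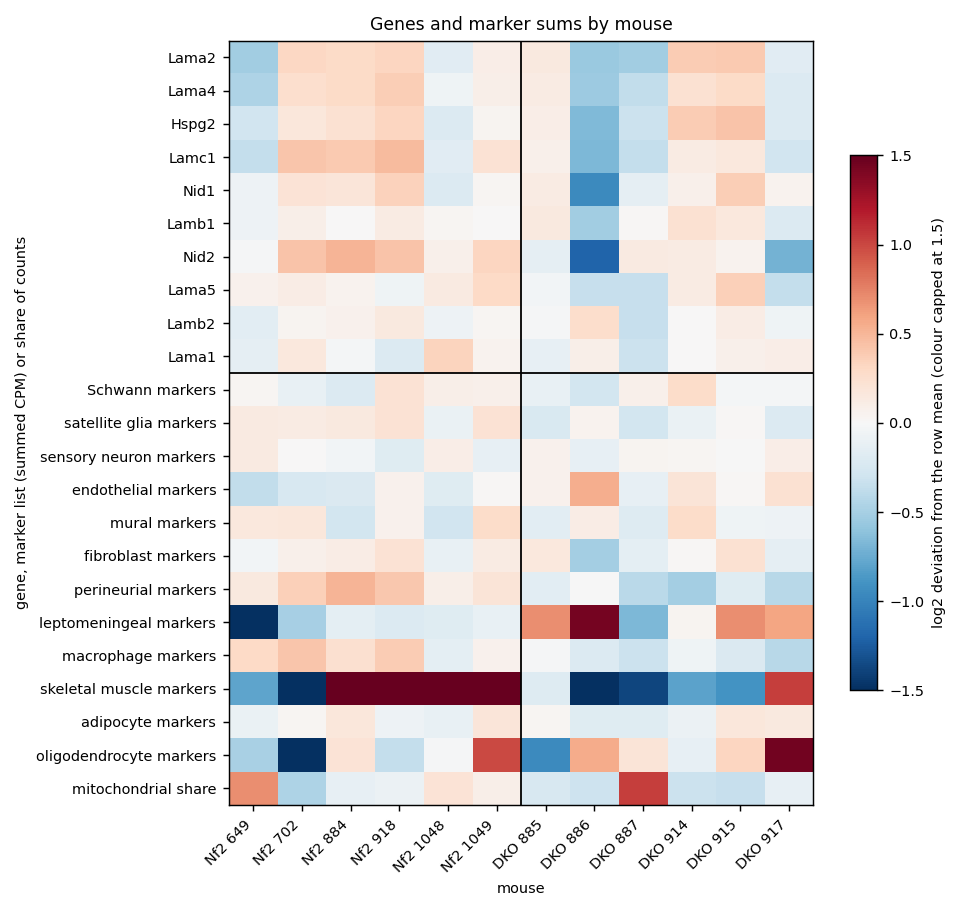
Deviation of each gene, each summed marker list (log2 of summed CPM + 4) and the mitochondrial share (log2) from its mean over 12 mice, with mice in columns and Nf2 left of the line. Colour is capped at 1.5 log2 units, which the muscle, leptomeningeal and oligodendrocyte rows exceed in some mice, and mouse DKO 886 shows low values in most gene rows beside high endothelial and leptomeningeal sums.

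Levels were also set against markers of the cells a dissected ganglion can hold. Of 130 relations with 12 marker sums and the mitochondrial share, 7 passed an adjusted permutation p of 0.05 by r and 0 by rho (smallest adjusted 0.0550). Of these 7, 6 were with the fibroblast sum, which contains the fibrillar collagens, and Nid1 had the highest of them at r = 0.94 and rho = 0.84 (permutation p 6e-05 and 0.00127, adjusted 0.00780 and 0.0550), with 0.94 within genotype and 0.82 without mice 886 and 887. The other relation was that of Lamb2 with the mitochondrial share, r = -0.84 and rho = -0.64 (permutation p 8.7e-04 and 0.0300, adjusted 0.0188 and 0.378), which fell to -0.43 without mice 887 and 649 and so rested on them. Fibroblast markers summed to 1789 to 2252 CPM in Nf2 and 1355 to 2273 CPM in DKO mice, with none of 7 at 0 in any library. Perineurial markers summed to 368 to 497 CPM in Nf2 and 244 to 345 CPM in DKO mice, macrophage markers to 206 to 308 and 170.5 to 227 CPM, and skeletal muscle markers to 14.4 to 1129 and 21.4 to 361 CPM. Leptomeningeal markers summed to 9.41 to 35.4 CPM in Nf2 and 22.8 to 111 CPM in DKO mice. Among these lists the edgeR threshold was passed by Sfrp5 (perineurial, lower in DKO) and C1qb (macrophage, lower), and the other 3 perineurial markers had positive log2 fold changes that did not pass (Cldn1 0.59, Slc2a1 0.21 and Lypd2 0.17). Lamc1 had -0.32 with the endothelial and -0.32 with the skeletal muscle sum as a covariate (edgeR adjusted p 0.673 and 0.486). Apart from these fits and those of Nid2 above, the part of these lists in the values of Nid2 and Lamc1 was not tested. No marker was called in the Schwann cell, satellite glia, sensory neuron, endothelial, mural, fibroblast, leptomeningeal, skeletal muscle, adipocyte or oligodendrocyte lists. Satellite glia markers summed to 893 to 1117 CPM in Nf2 and 790.0 to 998 CPM in DKO mice, mural markers to 173 to 258 and 185 to 258 CPM. Adipocyte markers stayed at or below 2.3 CPM and oligodendrocyte markers at or below 155 CPM in sum, each list having 1 marker at 0 in at least 1 library.

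For each gene, the other gene with the most similar pattern was sought among 11958 genes with a mean of at least 5 CPM, as a description over 12 mice that share their libraries. Lama4 was nearest to the septin Sept9 (r = 0.99), and Lama2 and Hspg2 were both nearest to Tmem198b (0.98 each). Lamc1 was nearest to Rab31, a vesicle-trafficking GTPase (0.98), Nid1 to the sheddase Adam17 (0.98), and Nid2 to N-cadherin, Cdh2 (0.94). Lamb2 was nearest to the replication protein Rpa1 (0.94), Lamb1 to Scamp2 (0.93), Lama5 to the collagen V chain Col5a1 (0.90) and Lama1 to the potassium channel Kcnt2 (0.87).

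Lama3, Lamb3 and Lamc3, laminin chains outside the set, had positive fold changes where the 10 genes had negative ones. Lama3 and Lamb3 are best known from epithelia, and the 3 chains summed to 8.94 to 14.7 CPM in Nf2 and 12.4 to 15.1 CPM in DKO mice. On the log2 scale, the value of Lamb3 was 0.55 ± 0.19 (edgeR adjusted p 0.176), that of Lama3 0.37 ± 0.13 (0.186) and that of Lamc3 0.19 (0.710). None of the 3 passed, and 2 did at an unadjusted p under 0.05, against 14.9% of all genes. A difference in direction between them and the 10 genes was not tested.

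Partners of the laminins in the basement membrane did not pass either. Of the 6 collagen IV chains, 4 had negative and 2 positive values with 0 called, Col4a1, a chain of the ubiquitous network, having -0.21 (edgeR adjusted p 0.479), Col4a3 -0.56 (0.505) and Col4a6 0.65 (0.331). Of 15 other basement membrane components, 9 were negative with 0 called. At an unadjusted p under 0.05 edgeR retained 6 of the 15, in both directions, against 14.9% of all genes. That is a larger share than over all genes, and the list as a set was not tested. Among these, Frem2, of the Fraser complex that anchors epithelia, had -1.03 (edgeR adjusted p 0.106), Col18a1, the source of endostatin, had -0.56 (0.107) and Frem1 had 0.40 (0.218).

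No gene of the receptor side was called. The 9 laminin receptors had values from -0.34 to 0.05. Bcam, the Lutheran receptor for Lama5, had -0.21 (edgeR adjusted p 0.207), and the integrin chains Itga6 and Itga1 had -0.16 (0.668) and -0.31 (0.709). Of the dystroglycan complex, which ties laminin to the cytoskeleton, 13 of 14 genes were tested, 6 with negative and 7 with positive values, and 0 were called. Its smallest p-values belonged to the sarcoglycan Sgce with -0.28 (edgeR adjusted p 0.112), the dystrobrevin Dtnb with 0.11 (0.549) and the sarcoglycan Sgcb with -0.07 (0.611). Of 11 enzymes that build the laminin-binding sugar on dystroglycan 0 were called, with values from -0.13 to 0.06, among them Ispd (-0.13, edgeR adjusted p 0.385), B4gat1 (-0.11, 0.364) and Tmem5 (-0.07, 0.674).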

How the data were processed

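RNA sequencing measured poly(A) RNA of 12 DRG samples, 1 library per mouse. According to the submitters' processing notes, the tools were Trimmomatic 0.36, STAR 2.5.2b and featureCounts of Subread 1.5.2, with the genome GRCm38. The strand setting and the treatment of reads with several matches were not given in the sources used here. The authors deposited raw read counts per Ensembl gene without normalization, and the study's methods plot log2(CPM + 4).

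Counts were tested in R 4.3.3 with edgeR 4.0.16 (filterByExpr by genotype, 18295 genes kept, TMM scaling, quasi-likelihood F test, Benjamini-Hochberg adjustment, threshold 0.05). DESeq2 1.42.0, limma 3.58.1 voom, other scalings and filters, covariates, single sexes and leaving out each mouse were alternatives. Tables used Python 3.11.15 (scipy 1.17.1, numpy 2.4.6, pandas 2.3.3) and plots matplotlib 3.10.9. CPM divides by the library total, 21129191 to 41250329 counts. The 10 genes had at least 916 counts per library, except Lama1 with 31 to 126. Lengths and coordinates came from GENCODE M21, which held 99.3% of the genes. P-values of the genotype and sex comparisons set a difference against the variation between these mice. Pairs of genes were compared by a permutation test on log2(CPM + 4) with 100000 resamples. The edgeR, limma voom and DESeq2 tests were tried on simulated counts of independent genes, with changes larger than those of the 10 genes. Recovery of changes as small as those of the 10 genes was not examined.

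The genes, the 6 related lists and the 12 marker lists were chosen with earlier results of these data known. Some genes of the related lists are not reported here, and counts, sums and shares leave them out. Named were all 10 genes, the other laminin chains, the up to 3 genes of each related list with the smallest edgeR p, the single most similar gene of each, and single markers only where a result turned on them.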

Additional observations from a re-analysis of the deposited data

Results flagged for a closer look

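In groups of 6 mice, a mouse far from the other 5 of its genotype was sought in 94 groups (47 measures in each genotype), and 5 were found where chance gives 4.7. The number is near what chance gives. In DKO mouse 886, the summed other basement membrane components were 10.4 against 11.1 in the nearest DKO mouse, as log2 of summed CPM + 4. In DKO mouse 917, Lamb3 made up 0.658% of the beta chain level, against 0.446% in the nearest mouse. In Nf2 mouse 649, the dystroglycan glycosylation sum on that scale was 8.82 against 8.97 and the leptomeningeal marker sum 3.75 against 4.91. In Nf2 mouse 1048, the satellite glia marker sum was 9.81 against 10.0. None of the 10 genes itself was found in this way.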

How the results depend on the processing

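None of the 10 genes passed the threshold in any of 26 other fits, whose smallest adjusted p over 260 gene fits was 0.119 (Nid2 by DESeq2). The sign held in 241 of these and turned in 19. With males only, values above 0 were 0.084 for Lama1, 0.11 for Lama2, 0.016 for Lama4, 0.024 for Lamb1, 0.019 for Nid1 and 0.13 for Hspg2. Without mouse 702 (chosen after seeing the data) these were 0.29, 0.25, 0.12, 0.064, 0.067 and 0.19, and Lamb2 had 0.021. With the endothelial covariate Lamb1 had 0.10 and Nid1 0.053. Leaving out each mouse in turn gave Lamb1 -0.11 to 0.031, Lamb2 -0.084 to 0.026 and Hspg2 -0.18 to 0.023. The genes called among all tested numbered 831 with DESeq2, 98 with the muscle covariate, 28 with the endothelial covariate, 2 in males, 9 in males without mouse 702, 57 in females, 314 without mice 649 and 887 (also chosen after seeing the data), and 81 to 217 without single mice. The causes were not tested. A pseudocount of 1 in place of 4 moved none of the 10 differences beyond 1 SD. No paired analysis was made, because the labels used here give no litter or batch by which mice of the genotypes could be paired. Depth was thinnest for Lama1, with 31 counts in its lowest library.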
